A study of Mus musculus with 12 samples.

Results

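The mRNAs of cholesterol synthesis and of its SREBP2 control were followed in cultured mouse macrophages. The set holds 28 genes, chosen by their place in the pathway and matched by symbol: 22 enzymes from acetyl-CoA to cholesterol and 6 genes of control and sterol transfer. The choice was made with earlier results of these data known. Counts of the set beside shares of all genes are therefore descriptions, not independent tests. All 28 were found among the 54532 genes of the count table and all 28 were among the 14506 genes with enough counts to be tested. Levels were measured by RNA-seq in macrophages resident in the peritoneum of C57BL/6 mice, taken into culture for 24 h in DMEM. The medium was buffered with MOPS in one pair of groups and with HEPES in the other, and each buffer was used without LPS and with LPS, the bacterial lipopolysaccharide that engages TLR4, at 10 ng/ml for 2 h. Each of the 4 groups, which are HEPES and MOPS and the same media with LPS, held 3 libraries. The study's text names pH 6.8 and pH 7.4 for the 2 media in the same word order as MOPS and HEPES, so the more acidic medium is taken here to be MOPS. Buffer and pH changed together and cannot be told apart, and no genotype, allele or other agent is named.

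Cholesterol is built from acetyl-CoA through mevalonate, isoprenoid diphosphates, squalene and lanosterol. When sterols in the endoplasmic reticulum fall, the carrier SCAP takes the membrane-bound transcription factor SREBP2 to the Golgi, where proteases free its active part. When sterols are plentiful, INSIG proteins hold SCAP back, and since the INSIG1 gene is itself a target of SREBP2 its mRNA is a common readout of the system. In macrophages the same pathway supplies sterols for membranes, and oxysterols that these cells can make restrain it through INSIG.

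The libraries held 20114613 to 24734853 counts. Levels are given as CPM, the counts of a gene relative to its library's total, with that total multiplied by a TMM factor, which corrects for a few abundant genes taking a large share of the reads. Fold changes, standard errors (SE) and adjusted p come from edgeR's quasi-likelihood test, fitted to all genes and all 12 libraries with Benjamini-Hochberg adjustment over the 14506 genes, and a gene was called at an adjusted p under 0.05. The first principal component held 73.2% of the variance and the second 14.4%. All 10 markers of resident peritoneal macrophages, Adgre1, Csf1r and Gata6 among them, had counts in every group. Between the untreated media 4 of the 10 were higher in MOPS and 4 lower, with a median of -0.12, where 24.3% of all genes tested were higher and 25.4% lower. The 10 markers summed to 17100 to 17500 CPM in MOPS and 26100 to 27500 CPM in HEPES, and to 19100 to 21400 and 28500 to 30300 CPM with LPS, but most of that sum is Lyz2, the lysozyme. Without Lyz2 the other 9 summed to 4610 to 4770 CPM in MOPS and 4580 to 4750 CPM in HEPES, and to 6640 to 7020 and 5790 to 6100 CPM with LPS. T and NK cell markers summed to 0.11 to 0.599 CPM. B cell markers moved with both medium and LPS: their 10 genes, all with counts in every group, summed to 213 to 223 CPM in MOPS, 103 to 175 in HEPES, 127 to 140 in MOPS with LPS and 32.3 to 37.3 in HEPES with LPS, and their part in the results below was not tested. In such bulk samples fewer cells of a type and less RNA per cell cannot be told apart. The labels do not say whether the libraries of a group came from separate animals or cultures, so p-values reflect only how these libraries vary, which may be technical.

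Promoter sequence was available from RefSeq (GRCm38.p6) for 24 of the 28 genes, in 30 windows that run from 250 bases before an annotated RefSeq start to 50 after it. Such a start can lie inside the gene as the count table bounds it: the start in the only Tm7sf2 window lies 9347 bases in, and that in the only one of the 3 Dhcr7 windows with CCAAT 7069 bases in. For 26 of the 30 windows the bases after the start lay near the beginning of a GENCODE transcript of the gene, the exceptions being those of Hmgcs1, Lbr, Nsdhl and Sc5d. Not matched were Fdps, Fdft1, Sqle and Stard4. Motifs were searched on both strands: TCACNCCAC, a form of the sterol regulatory element that SREBP2 binds, CCAAT, bound by NF-Y, and GGGCGG, bound by Sp1. NF-Y and Sp1 are known to act beside SREBPs. CCAAT was found in 21 of the 24 genes (87.5%), against 41.1% of all 27025 genes in the promoter table and 42.5% of the 10158 matched genes that were tested here. GGGCGG was also found in 21 of 24 (87.5%), against 38.2% of all genes and 67.3% of tested genes. Over the 20 genes with a window that passed that comparison, CCAAT was found in 17 and GGGCGG in 17. TCACNCCAC was found in 1 of 24, Hmgcs1, against 1.44% of all genes and 1.37% of tested genes. These matches are descriptions of letters in a window and not sites shown to be bound. Other forms of the sterol regulatory element were not searched, so windows without TCACNCCAC are not shown to lack one.

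Stretches that end at or before the gene start, in both the promoter table and the count table, are shown for 5 genes, 5′ to 3′ on the gene's own strand with the 3 motifs or their reverse complements in capitals. Hmgcs1 is shown for its sterol regulatory element (chr13:119690101-119690350, plus strand), Mvk for its 5 CCAAT boxes, the most of any of these genes (chr5:114444019-114444268, plus strand), Hsd17b7 for the large difference between media described below (chr1:169969242-169969455, minus strand), Insig1 as the feedback gene (chr5:28071162-28071362, plus strand) and Ggps1 as one that went the other way (chr13:14063489-14063738, minus strand).
Hmgcs1: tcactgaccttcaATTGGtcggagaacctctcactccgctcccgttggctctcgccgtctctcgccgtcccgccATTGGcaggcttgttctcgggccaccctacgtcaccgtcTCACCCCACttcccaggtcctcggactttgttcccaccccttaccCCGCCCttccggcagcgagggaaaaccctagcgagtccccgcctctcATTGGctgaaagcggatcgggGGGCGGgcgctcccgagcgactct
Mvk: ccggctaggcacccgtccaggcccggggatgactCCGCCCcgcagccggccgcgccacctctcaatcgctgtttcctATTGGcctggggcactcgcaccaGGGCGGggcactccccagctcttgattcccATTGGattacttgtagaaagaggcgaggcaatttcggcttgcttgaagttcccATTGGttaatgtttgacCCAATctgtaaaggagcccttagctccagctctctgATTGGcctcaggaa
Hsd17b7: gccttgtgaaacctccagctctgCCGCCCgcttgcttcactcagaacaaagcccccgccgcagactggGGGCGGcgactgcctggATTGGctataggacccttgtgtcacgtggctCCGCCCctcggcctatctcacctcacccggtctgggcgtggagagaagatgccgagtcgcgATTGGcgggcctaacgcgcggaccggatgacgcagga
Insig1: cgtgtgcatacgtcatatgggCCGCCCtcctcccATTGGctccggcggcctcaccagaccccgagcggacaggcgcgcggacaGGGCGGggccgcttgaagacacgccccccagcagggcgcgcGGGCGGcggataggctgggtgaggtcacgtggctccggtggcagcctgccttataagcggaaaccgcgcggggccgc
Ggps1: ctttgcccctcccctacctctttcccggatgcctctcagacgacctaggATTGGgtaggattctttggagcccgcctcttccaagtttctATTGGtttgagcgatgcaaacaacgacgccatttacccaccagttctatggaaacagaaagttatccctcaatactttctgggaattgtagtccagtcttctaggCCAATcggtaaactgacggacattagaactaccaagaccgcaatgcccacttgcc
In Hmgcs1 the sterol regulatory element lay at bases -137 to -129 from the start, between CCAAT boxes at -176 to -172 and -45 to -41. Both Hsd17b7 and Insig1 combined CCAAT and GGGCGG in the stretch shown. Ggps1 held CCAAT at 3 places and no GGGCGG in its window, so a CCAAT box was present both in genes that were lower in MOPS and in this gene, which was higher. No CCAAT was found in Aacs, Acat2 or Scap, and no GGGCGG in Aacs, Pmvk or Ggps1.

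**Figure D1:**
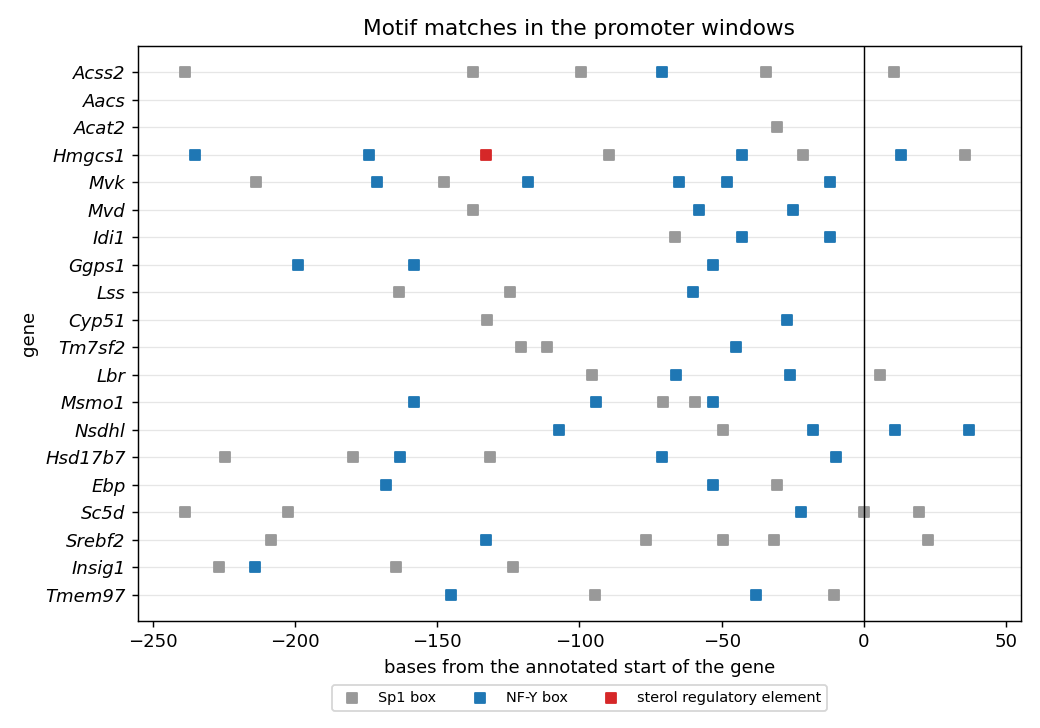
Positions of the 3 motifs in the promoter windows of the 20 genes with a single window, with bases from the annotated start on the x axis and genes in pathway order on the y axis. CCAAT (NF-Y box) is present in 18 of the 20 rows, and TCACNCCAC, the only form of the sterol regulatory element searched, only in Hmgcs1.

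Without LPS, most of the pathway was lower in MOPS than in HEPES. Of the 28 genes 24 were lower, 2 were higher (Acss2 and Ggps1) and 2 were not called (Scap and Insig2), where 25.4% of all genes tested were lower and 24.3% higher. The median log2 change of the 28 genes was -1.45, against -0.01 over all genes tested, and 19 were lower by at least 2-fold and called, as were 4.76% of all genes. The summed level of the 22 enzymes was 346 to 352 CPM in MOPS and 938 to 994 CPM in HEPES, so the HEPES mean was 2.78 times the MOPS mean. Of 10 B cell markers 5 were higher in MOPS and 1 lower, with a median of 0.64, and their part was not tested. The ratio differed along the pathway: 2.15 for the 4 entry enzymes, 1.94 for the 6 enzymes from mevalonate to isoprenoids, 6.06 for the 3 squalene enzymes and 2.97 for the 9 enzymes after lanosterol. These sums are weighted to abundant genes, such as Mvd and Ggps1 in the mevalonate section. By the median gene the section was lower in MOPS by 2.78-fold at the entry, 3.34-fold from mevalonate to isoprenoids, 5.26-fold for squalene and 2.53-fold after lanosterol, so the order of the sections other than squalene depends on the measure.

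**Figure D2:**
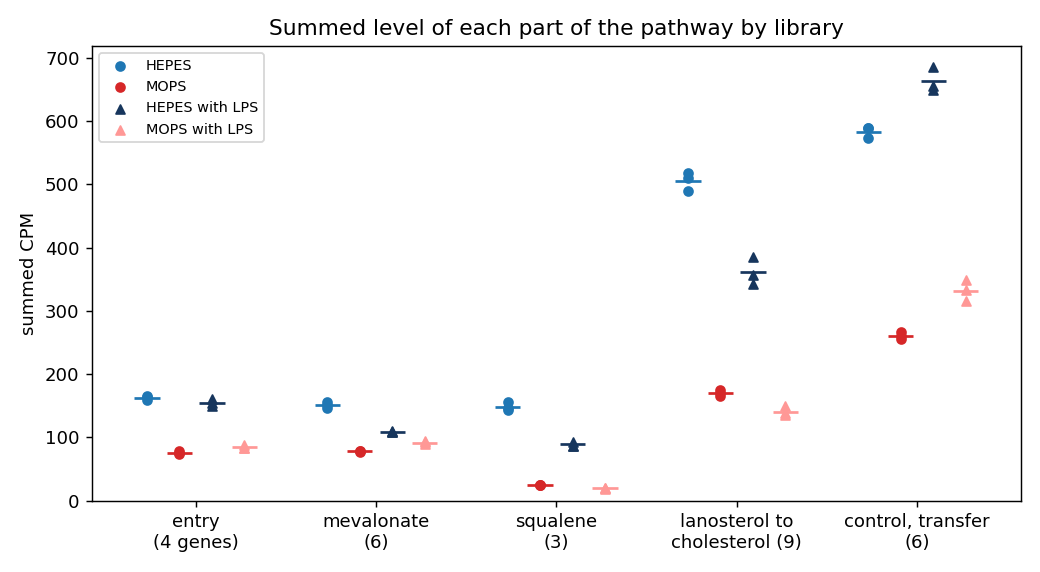
Summed CPM of the genes of each pathway section, with a point for each library and a bar at each group mean (n = 3). In each section the 3 MOPS libraries lie below the 3 HEPES libraries, with the widest ratio for the squalene enzymes (24.2 to 24.6 against 143 to 156 CPM).

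The entry enzymes turn acetate and acetoacetate into their CoA esters and condense these to HMG-CoA. Hmgcs1 encodes the cytosolic HMG-CoA synthase that makes it. Its level was 33.6, 34.8 and 31.2 CPM in the MOPS libraries and 102, 108 and 109 CPM in the HEPES libraries. The groups did not overlap, which was not counted over all genes. The log2 change of Hmgcs1 was -1.68 ± 0.05 (SE, n = 3 per group, adjusted p = 1.82e-22). Acat2, the cytosolic thiolase that joins acetyl-CoA units, had a log2 change of -1.59 ± 0.14 (adjusted p = 5.07e-11), although 39.1% of the 50-base words in its transcripts also occur in other genes, chiefly its near copy Acat3, so its counts are uncertain. Aacs, the acetoacetyl-CoA synthetase, had a log2 change of -1.37. Acss2, the acetyl-CoA synthetase that reuses acetate, went the other way, with 24.9, 27.4 and 28.6 CPM in MOPS and 15.1, 15.0 and 16.1 CPM in HEPES, a log2 change of 0.81 ± 0.07 (adjusted p = 4.2e-11).

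In the section that carries mevalonate to the isoprenoid diphosphates, 5 of 6 genes were lower and Ggps1 was higher. Idi1 (ENSMUSG00000058258, chr13:8885501-8892451 in mm10) encodes the isomerase that interconverts the isoprenoid units and had the lowest log2 change of the 28 genes. It was at 2.69, 2.83 and 2.85 CPM in MOPS and at 33.7, 32.4 and 32.8 CPM in HEPES. That is a log2 change of -3.56 ± 0.09 (adjusted p = 9.91e-25), or 11.8-fold lower. For Idi1, 25.3% of the 50-base words are shared with other genes, chiefly Gm13502, which held 92 counts over the 12 libraries. Gm13502 was lower in MOPS too (log2 change -1.92, adjusted p = 0.00261). How far shared reads affect the Idi1 count was not tested.

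Fdps, the farnesyl diphosphate synthase, was 10.9-fold lower, but from only 383 counts in all: 0.316, 0.333 and 0.163 CPM in MOPS and 3.38, 3.18 and 2.62 CPM in HEPES. A share of 26.2% of its 50-base words lies in 8 other genes, so both its low level and its fold change are uncertain. Mvk, the mevalonate kinase, stood at 5.18, 4.43 and 5.17 CPM in MOPS and at 19.3, 24.6 and 21.3 CPM in HEPES (log2 change -2.14 ± 0.11, adjusted p = 1.54e-16). The next kinase, Pmvk, had a log2 change of -1.33 and the decarboxylase Mvd one of -0.85. Each of these genes separated the media without overlap. How many of all genes tested do so was not counted, and Scap, which was not called, did so too.

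Ggps1 makes geranylgeranyl diphosphate and so stands on a side branch that leads to prenylated proteins rather than to sterols. Its level was 32.8, 33.2 and 33.6 CPM in MOPS and 22.2, 23.9 and 25.4 CPM in HEPES, a log2 change of 0.48 ± 0.07 (adjusted p = 7.67e-07). Ggps1 and Acss2, the 2 genes that were higher in MOPS, each overlap a gene on the opposite strand. The strand setting of the counting is not given in the sources used here, and without strand the reads of such partners cannot be told apart. Acss2 shares 395 exon bases with Gss, the glutathione synthetase, which held 142% of the Acss2 counts and was itself higher in MOPS (log2 change 1.38). Ggps1 shares 257 exon bases with Arid4b, which held 173% of its counts and was also higher (0.36). With LPS both Gss (1.47) and Arid4b (0.17) were again higher in MOPS. The log2 LPS changes in HEPES were -0.83 for Acss2 and -0.03 for Gss, and 0.03 for Ggps1 and 0.55 for Arid4b. In MOPS they were -0.19 and 0.06, and 0.07 and 0.36. How far reads of Gss and Arid4b enter the 2 counts was not tested.

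The 3 squalene enzymes were all lower. Sqle, the squalene epoxidase, was at 6.6, 7.42 and 8.88 CPM in MOPS and at 61.4, 70.3 and 67.1 CPM in HEPES, a log2 change of -3.12 ± 0.08 (adjusted p = 1.59e-23) or 8.69-fold lower. Lss, the lanosterol synthase that closes the sterol rings, was at 9.81, 8.02 and 7.62 CPM in MOPS and 36.8, 38.8 and 38.3 CPM in HEPES (log2 change -2.16 ± 0.09, adjusted p = 8.43e-18). Fdft1, the squalene synthase, had a log2 change of -2.40. Fdft1 overlaps Ctsb, the lysosomal protease cathepsin B, over 774 exon bases on the opposite strand, and Ctsb held 2377011 counts against 6887 for Fdft1. Ctsb was lower in MOPS too (log2 change -0.69), by less than Fdft1, and how far its reads enter the Fdft1 count was not tested.

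All 9 enzymes after lanosterol were lower in MOPS, with log2 changes from -2.96 to -0.28. Hsd17b7, the ketosteroid reductase of this section, was at 3.72, 3.73 and 3.71 CPM in MOPS and 28.5, 29.0 and 29.3 CPM in HEPES. Its log2 change was -2.96 ± 0.09 (adjusted p = 7.16e-23), or 7.78-fold lower. The demethylase Cyp51 followed with -2.71, the methylsterol oxidase Msmo1 with -2.17, the desaturase Sc5d with -1.86, the reductase Tm7sf2 with -1.34 and the decarboxylating dehydrogenase Nsdhl with -1.17. Cyp51 overlaps Akap9 over 166 exon bases on the opposite strand, and Akap9 changed the other way (0.31). Tm7sf2 overlaps Vps51 on its own strand over 532 bases, and the Tm7sf2 counts were low (1085 over the 12 libraries). Vps51 held 916 counts. Its log2 change was -0.40 without LPS, not called (adjusted p = 0.0571), and -0.66 with LPS (adjusted p = 0.00548). How far reads of Vps51 enter the Tm7sf2 count was not tested.

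The smallest changes among the late enzymes were those of Dhcr7, which reduces dehydrocholesterol (-0.85), Lbr, a lamin receptor that is also a sterol reductase (-0.47), and Ebp, the sterol isomerase. Ebp was at 34.4, 27.4 and 31.8 CPM in MOPS and at 36.8, 37.8 and 38.5 CPM in HEPES (log2 change -0.28 ± 0.06, adjusted p = 0.000507). The highest MOPS library of Ebp lay below the lowest HEPES library, which was not counted over all genes. Late enzymes thus ranged from 1.21-fold to 7.78-fold lower.

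**Figure D3:**
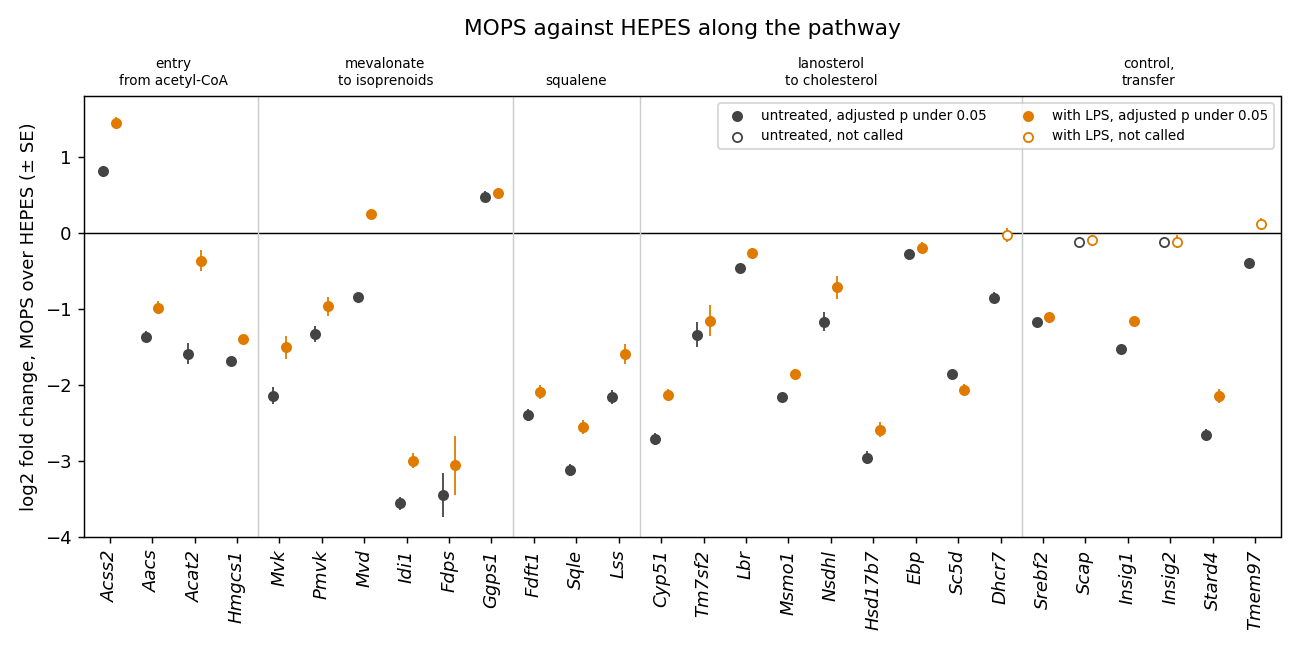
Log2 fold change of MOPS over HEPES for each of the 28 genes in pathway order, without LPS (grey) and with LPS (orange), with the SE of the fit as bars and open points where the adjusted p was not under 0.05. Most points lie below 0 in both conditions, Acss2 and Ggps1 lie above 0 in both, and Scap and Insig2 sit near 0.

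The control genes did not move as one. Srebf2 (ENSMUSG00000022463, chr15:82147181-82205379), which encodes SREBP2, was at 107, 111 and 107 CPM in MOPS and 237, 248 and 249 CPM in HEPES, a log2 change of -1.17 ± 0.04 (adjusted p = 1.76e-20). Insig1 (ENSMUSG00000045294, chr5:28071363-28078662) was at 71.3, 74.3 and 68.4 CPM in MOPS and 206, 207 and 205 CPM in HEPES (log2 change -1.53 ± 0.05, adjusted p = 1.05e-22). Both groups were tight and well apart for these genes, which was not counted over all genes.

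Scap, the carrier, was at 35.1, 36.0 and 33.9 CPM in MOPS and 38.7, 38.3 and 37.5 CPM in HEPES, a log2 change of -0.12 ± 0.05 that was not called (adjusted p = 0.0545). Its call rested on the fit: with only the 2 untreated groups fitted the adjusted p was 0.0496, and without MOPS with LPS replicate 9 it was 0.0455. Insig2, the other INSIG gene, was at 22.2, 20.9 and 19.7 CPM in MOPS and 22.0, 23.4 and 23.1 CPM in HEPES, with overlapping groups (log2 change -0.12 ± 0.07, adjusted p = 0.172). Stard4, a soluble sterol carrier, was at 7.91, 7.22 and 8.56 CPM in MOPS and 47.4, 48.3 and 53.1 CPM in HEPES (log2 change -2.65 ± 0.08, adjusted p = 9.13e-23). Tmem97, a sterol-responsive membrane protein of the endoplasmic reticulum, had a log2 change of -0.40, and 20.8% of its 50-base words also lie in Gm5809, which held 7 counts.

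Levels can be compared between genes only per length, here as CPM per kilobase of the gene length in the table. In HEPES without LPS, Insig1 was highest at 66.5 ± 0.311 CPM per kilobase (SD, n = 3), then Srebf2 at 34.1 ± 0.902, Mvd at 30.4 ± 1.40, Cyp51 at 27.6 ± 1.41 and Hmgcs1 at 23.2 ± 0.754. In MOPS the order was Insig1 at 23.1 ± 0.961, Mvd at 16.9 ± 0.533, Srebf2 at 15.1 ± 0.321, Ebp at 13.5 ± 1.54 and Tmem97 at 12.5 ± 0.399. Cyp51 had moved down to 4.21 ± 0.163 and Hmgcs1 to 7.22 ± 0.402. Neighbours whose SDs touch, such as Mvd and Cyp51 in HEPES or Ebp and Tmem97 in MOPS, are not ordered by these data.

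**Figure D4:**
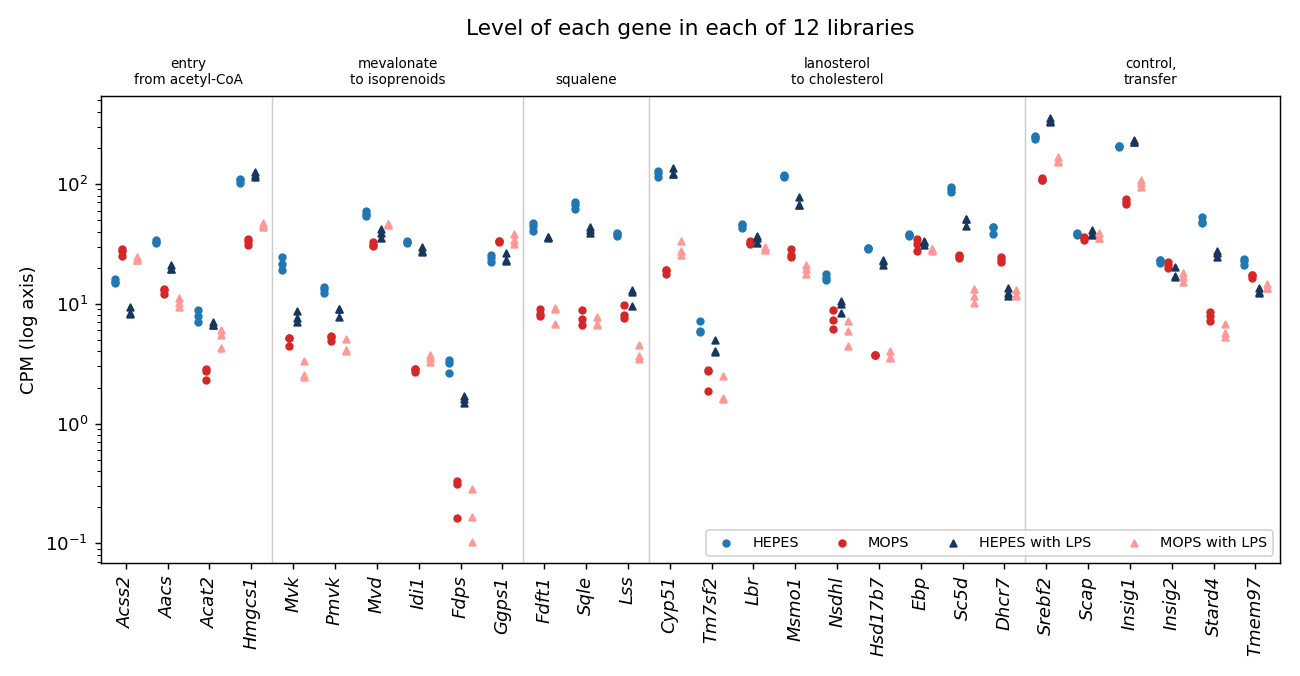
CPM of each gene in each of the 12 libraries on a log axis, genes in pathway order and groups by colour and shape. The MOPS and HEPES points are separate for most genes, lie close together for Scap and Insig2, and are lowest for Fdps. How many of all genes tested have separate points was not counted. CPM is not divided by gene length, so heights are comparable within a gene only.

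With LPS the difference between media had the same direction for most genes. Of the 28 genes 21 were lower in MOPS, 3 were higher (Acss2, Ggps1 and Mvd) and 4 were not called (Dhcr7, Scap, Insig2 and Tmem97), where 26.9% of all genes tested were lower and 26.9% higher. The median log2 change was -1.13, against 0.00 over all genes, and 15 were lower by at least 2-fold and called, as were 4.3% of all genes. The untreated and the LPS-treated comparison share no library, though their calls come from the same fit to all 12 libraries. In both, 21 genes were lower and 2 higher, where 12.8% of all genes tested were lower in both and 13.8% higher in both. Summed over the 22 enzymes the level was 332 to 344 CPM in MOPS with LPS and 689 to 749 CPM in HEPES with LPS, a ratio of the means of 2.12. Of 10 B cell markers 9 were higher in MOPS with LPS, with a median of 1.71, and their part was not tested.

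Idi1 was at 3.29, 3.5 and 3.75 CPM in MOPS with LPS and at 26.9, 27.6 and 29.5 CPM in HEPES with LPS (log2 change -3.00 ± 0.09, adjusted p = 4.32e-22). Sqle was at 7.82, 6.72 and 6.67 CPM against 41.3, 39.0 and 44.1 CPM (log2 change -2.55 ± 0.09, adjusted p = 4.01e-20). Hsd17b7 was at 3.6, 3.5 and 4.02 CPM against 21.2, 22.6 and 23.0 CPM (log2 change -2.59 ± 0.10, adjusted p = 2.84e-20). The media did not overlap in any of these 3 enzymes, and the share of all genes without overlap was not counted. Sc5d, at 13.3, 11.5 and 10.1 CPM against 44.6, 51.2 and 50.7 CPM, had a log2 change of -2.07 with LPS and -1.86 without.

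Mvd, the decarboxylase, changed side: it was at 46.5, 45.4 and 46.6 CPM in MOPS with LPS and at 41.9, 35.4 and 39.2 CPM in HEPES with LPS (log2 change 0.25 ± 0.06, adjusted p = 0.000535). Dhcr7 no longer separated the media, at 13.1, 11.9 and 11.7 CPM against 12.2, 11.5 and 13.6 CPM (log2 change -0.02 ± 0.09, adjusted p = 0.845). Acat2 was at 5.5, 4.3 and 6.06 CPM against 6.7, 7.02 and 6.62 CPM (log2 change -0.37 ± 0.14, adjusted p = 0.0301). The Acat2 call was lost without MOPS with LPS replicate 8 (adjusted p = 0.138), without HEPES with LPS replicate 11 (0.053), with no filter on low counts (0.0506) and with library totals alone (0.104). With library totals alone the call of Ebp, a log2 change of -0.19, was lost as well (adjusted p = 0.236), while Tmem97 gained one above 0 (0.21, adjusted p = 0.0361). Scap was called below 0 without HEPES with LPS replicate 10 (-0.16, adjusted p = 0.043).

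In HEPES, most of the pathway was lower with LPS than without on the TMM scale. Of the 28 genes 21 fell, 3 rose (Srebf2, Hmgcs1 and Insig1) and 4 were not called (Acat2, Ggps1, Cyp51 and Scap), where 41.2% of all genes tested fell and 35.6% rose. The median log2 change was -0.54, against -0.08 over all genes. The TMM factors were 0.80 to 0.863 with LPS and 1.19 to 1.22 without it, and with library totals alone the median over all genes moved by -0.58 in HEPES and by -0.51 in MOPS, while 28 of the 28 genes then fell in HEPES, where 66.6% of all genes tested did, and 20 fell and 1 rose in MOPS, where 65.5% of all genes fell and 14.4% rose. B cell markers fell in HEPES as well, 10 of 10, with a median of -2.01, and their part in the falls of the pathway was not tested.

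Dhcr7 fell most in HEPES, from 38.3, 44.0 and 44.0 CPM without LPS to 12.2, 11.5 and 13.6 CPM with it, by 1.76 ± 0.08 on the log2 scale (adjusted p = 2.3e-19). Lss fell by 1.69 ± 0.10, to 9.58, 12.6 and 13.1 CPM (adjusted p = 4.73e-16). Mvk fell by 1.48 ± 0.11, to 8.71, 7.61 and 7.06 CPM (adjusted p = 1.68e-13). In each of these 3 genes the groups were well apart, which was not counted over all genes. Stard4 fell by 0.92, Sc5d by 0.89, Acss2 by 0.83, Tmem97 by 0.83, Nsdhl by 0.80, Msmo1 by 0.73, Aacs by 0.72 and Sqle by 0.68. The fall of Idi1 (-0.23) and that of Ebp (-0.22) were lost without HEPES with LPS replicate 10 (adjusted p = 0.0539 and 0.09). Acat2 gained a called fall without HEPES replicate 6 (-0.31, adjusted p = 0.0455) and with library totals alone (-0.81, adjusted p = 9.9e-07).

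The genes that rose in HEPES changed little. Srebf2 went to 336, 327 and 357 CPM with LPS, a log2 change of 0.48 ± 0.04 (adjusted p = 5.79e-12) that turned to -0.11 with library totals alone. Hmgcs1 went to 114, 118 and 126 CPM (0.17 ± 0.05, adjusted p = 0.00196) and turned to -0.42 with library totals alone, and Insig1 went to 225, 223 and 234 CPM (0.14 ± 0.04, adjusted p = 0.00336) and turned to -0.44. The all-gene median on that scale was -0.67, so relative to it all 3 stood higher. With no filter on low counts neither Hmgcs1 (adjusted p = 0.0502) nor Insig1 (0.102) was called.

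In MOPS, LPS changed fewer of these genes than in HEPES, as it did of all genes tested. In HEPES 41.2% of all genes tested fell and 35.6% rose. On the TMM scale 12 of the 28 genes fell in MOPS, 7 rose and 9 were not called, where 34.9% of all genes tested fell and 34.1% rose. The median log2 change was -0.18, against -0.03 over all genes. The fallen genes again included Lss, at 3.44, 4.49 and 3.64 CPM with LPS (fell by 1.13 ± 0.13, adjusted p = 1.07e-08), Sc5d (fell by 1.10 ± 0.08, adjusted p = 2.63e-13), Dhcr7 (fell by 0.93 ± 0.08, adjusted p = 8.83e-12) and Mvk, at 2.52, 2.46 and 3.31 CPM (fell by 0.84 ± 0.15, adjusted p = 1.67e-05). Lss, Sc5d, Dhcr7 and Mvk were among the 12 genes that fell in both media, where 30.2% of all genes tested fell in both. The 2 comparisons share no library, but both calls come from the same fit to all 12 libraries. B cell markers fell in MOPS in 8 of 10 genes, with a median of -0.69, and their part was not tested.

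Of the genes that rose in MOPS, Acat2 rose 1.99-fold, from 2.85, 2.73 and 2.32 CPM to 5.5, 4.3 and 6.06 CPM (log2 change 0.99 ± 0.15, adjusted p = 1.26e-06). Its near copy Acat3, with 144 counts in all, rose with LPS too (log2 change 3.74 in MOPS and 3.41 in HEPES). How far reads of Acat3 enter the Acat2 count was not tested. Cyp51 had a log2 change of 0.63 ± 0.09 (adjusted p = 3.89e-06), Mvd of 0.55 ± 0.06 (adjusted p = 5.77e-10) and Srebf2, at 167, 152 and 154 CPM with LPS, of 0.53 ± 0.04 (adjusted p = 1.81e-12). Insig1 went to 108, 94.1 and 102 CPM (0.51 ± 0.05, adjusted p = 3.79e-11), Hmgcs1 to 47.3, 43.6 and 45.5 CPM (0.45 ± 0.05, adjusted p = 1.33e-08), and Idi1 had a log2 change of 0.33 ± 0.13 (adjusted p = 0.0283). With library totals alone Hmgcs1 (-0.06), Idi1 (-0.18) and Insig1 (-0.01) turned just below 0 and Cyp51 (0.12), Mvd (0.04) and Srebf2 (0.02) lost their call, against an all-gene median of -0.55 on that scale, while the rise of Acat2 was still called. The rise of Idi1 lost its call with only the 2 groups fitted (adjusted p = 0.0819), with no filter on low counts (0.108), and without MOPS replicate 1 (0.0709), MOPS with LPS replicate 8 (0.0597) or MOPS with LPS replicate 9 (0.101).

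Several small falls in MOPS also hung on single libraries. Nsdhl (-0.35, with overlapping groups) lost its call without MOPS replicate 2 (adjusted p = 0.0672), MOPS replicate 3 (0.225), MOPS with LPS replicate 7 (0.066), MOPS with LPS replicate 8 (0.288) or HEPES with LPS replicate 11 (0.0507), and with only the 2 groups fitted (0.0636). Acss2 (-0.19) lost it without MOPS replicate 2 (0.0529), MOPS replicate 3 (0.0902) or MOPS with LPS replicate 9 (0.0559), and Lbr (-0.16) without MOPS replicate 2 (0.0849) or MOPS with LPS replicate 9 (0.0734). Called falls in MOPS were gained by Tm7sf2 in 3 of the alternatives (adjusted p = 0.000415 to 0.0364), by Ebp in 3 (5.28e-10 to 0.0214) and by Pmvk in 2 (4.3e-06 to 0.0314). Sqle and Hsd17b7 gained a called fall with library totals alone. Scap was not called in either medium, with 35.6, 35.2 and 39.1 CPM in MOPS with LPS and 37.7, 38.3 and 40.9 CPM in HEPES with LPS. Insig2 fell in both media, by 0.34 ± 0.08 in MOPS and by 0.35 ± 0.08 in HEPES, to 17.9, 15.1 and 16.8 CPM and 17.1, 20.1 and 16.7 CPM.

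**Figure D5:**
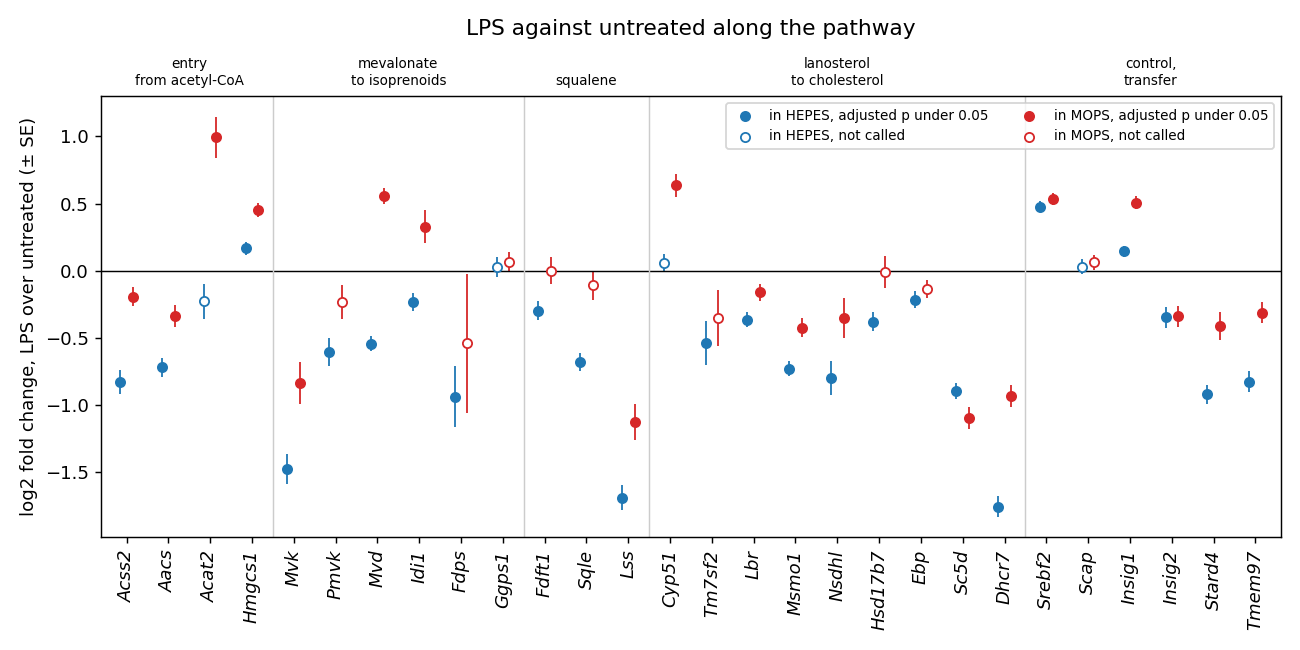
Log2 fold change of LPS over untreated for each gene in HEPES (blue) and MOPS (red) on the TMM scale, with the SE of the fit as bars and open points where the adjusted p was not under 0.05. The MOPS point lies above the HEPES point for 27 of the 28 genes, as it does for 55% of all genes tested. With library totals alone all points move down, and the small rises, such as those of Hmgcs1 and Insig1, turn below 0.

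The difference between the 2 LPS responses was tested directly, by subtracting the log2 LPS change in HEPES from the one in MOPS. It was above 0 and called in 16 of the 28 genes and called below 0 in 0 of them, where 21.9% of all genes tested were called above and 17.6% below. At an unadjusted p under 0.05 the fit gave 20 of the 28 genes above 0 and 0 below. The share of all genes at that threshold was not counted. DESeq2 called 15 above and 0 below, where it called 17.8% of all genes above and 18.8% below, and RLE factors gave 15 and 0, against 2783 and 2899 of the 14506 genes. Library totals alone gave 20 above and 0 below, against 26.8% and 13.6% of all genes. The median was 0.38, against 0.06 over all genes. The same number can be read as the change in the difference between media, which was smaller with LPS than without in 25 of the 28 genes, as in 42.5% of all genes tested.

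The largest differences were in Acat2 (1.22 ± 0.20, adjusted p = 1.13e-05), Mvd (1.10 ± 0.08, adjusted p = 3.58e-12), Dhcr7 (0.83 ± 0.11, adjusted p = 6.28e-07) and Mvk (0.64 ± 0.19, adjusted p = 0.00874). The Acat2 counts are uncertain because of its near copy Acat3, whose own difference was not called (0.33 ± 0.75, adjusted p = 0.768). For Mvd the LPS response was of opposite sign in the 2 media, a rise in MOPS and a fall in HEPES. For Dhcr7 and Mvk it was a fall in both that was deeper in HEPES. Among the 4 entry enzymes all 4 were called, among the 9 late enzymes 4 and among the control genes Insig1, Stard4 and Tmem97.

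At the other end, Srebf2 had an LPS response that was not called as different between the media (0.06 ± 0.06, adjusted p = 0.461), as had Insig2 (0.01 ± 0.11, adjusted p = 0.974), Scap (0.04 ± 0.08, adjusted p = 0.765), Ggps1 (0.04 ± 0.10, adjusted p = 0.783) and Sc5d (-0.20 ± 0.10, adjusted p = 0.109). Sc5d was called below 0 once a single LPS library was left out, either MOPS with LPS replicate 7 (-0.36, at an adjusted p of 0.00588) or replicate 10 of HEPES with LPS (-0.31, at 0.0115). Calls above 0 were gained by Fdft1 in 5 of the alternatives (adjusted p = 0.0123 to 0.0333), by Lbr in 5 (0.00918 to 0.0468), by Nsdhl in 4 (0.0126 to 0.0352) and by Pmvk in 1, library totals alone (0.0348). The call for Hsd17b7 (0.37) did not hold with RLE factors (adjusted p = 0.0561) or DESeq2 (0.109), and was lost without any single library other than HEPES replicate 4 (0.0539 to 0.126). Those of Aacs (0.0716 without MOPS with LPS replicate 7), Msmo1 (0.108 without MOPS with LPS replicate 7, 0.0574 without HEPES with LPS replicate 10 and 0.064 without HEPES with LPS replicate 11), Lss (0.112 without MOPS with LPS replicate 8 and 0.0537 without HEPES with LPS replicate 10) and Mvk (0.0658 without MOPS with LPS replicate 9) each depended on single LPS libraries. For B cell markers the same difference was called above 0 in 9 of 10 genes with a median of 1.23, and their part in the differences of the pathway was not tested.

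Around the pathway, the proteins that cut SREBPs or degrade sterol-sensing proteins gave a mixed picture between the untreated media: of 15 tested genes 7 were higher in MOPS and 3 lower, with a median of 0.09. For this list and the next, the shares over all genes tested were 24.3% higher and 25.4% lower. Rnf145, a sterol-responsive ubiquitin ligase, was lower (-0.61 ± 0.05, adjusted p = 1.07e-12), at 37.1 to 38.3 CPM in MOPS and 57.2 to 57.8 CPM in HEPES. Erlin1, a partner of sterol-regulated degradation, was lower by 0.33, while Ubxn8 (0.44) and Aup1 (0.33), both of the degradation machinery of the endoplasmic reticulum, were higher. Of 13 genes of fatty acid synthesis that also answer to SREBPs 9 were lower in MOPS and 1, the malic enzyme Me1, was higher, with a median of -0.99. Fads2, the fatty acid desaturase, had a log2 change of -4.32 ± 0.32 from low levels (0.0407 to 0.277 against 2.97 to 3.36 CPM), Acsl3, an acyl-CoA synthetase, of -2.01 ± 0.12, Fasn, the fatty acid synthase, of -1.34 ± 0.06, and Pcyt2, of phosphatidylethanolamine synthesis, of -1.26 ± 0.07. Srebf1, which encodes SREBP1, had a log2 change of -0.35 ± 0.05, against -1.17 for Srebf2.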

How the data were processed

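RNA-seq of 12 libraries in 4 groups of 3 was taken from 1 deposited table. It holds whole-number counts per gene and library, which per the file headers are the authors' raw counts, and a gene length in a column of another unit. The submitters' processing notes name CASAVA 1.8, HISAT2 2.0.5, featureCounts 1.5.0-p3 and mm10. What each did, how strand was set and which annotation was used is not stated in those notes or in the labels. The authors' FPKM and comparison columns were not used. The number of per-sample value columns without a sample was 0.

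Counts were tested with edgeR 4.0.16 in R 4.3.3: filterByExpr by group, TMM factors, a means model of the 4 groups fitted to 12 libraries (8 residual degrees of freedom), glmQLFit with robust dispersion, and Benjamini-Hochberg adjustment over 14506 genes with a threshold of 0.05. The common coefficient of biological variation was 4.62%. The script was tested on simulated data. CPM is scaled by TMM. Alternatives were RLE factors, library totals, DESeq2 1.42.0, no filter beyond 1 count in any library, only the 2 groups compared, no robust dispersion, and each library left out. Overlaps and shared words of 50 bases came from GENCODE vM21. Promoters came from RefSeq, GRCm38.p6. No 2 libraries were identical.

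The 28 genes and all lists were chosen with earlier results of these data known. Per-library values are given for the largest and smallest change of each section, for Srebf2, Scap, Insig1 and Insig2 and for the 4 largest and smallest differences in LPS response. From each other list up to 4 genes by smallest p, Ch25h and Srebf1 are named. Lists not otherwise reported were markers of mast cells and granulocytes (23.6 to 40.3 summed CPM over all groups), small peritoneal macrophages and dendritic cells (51.8 to 108) and mesothelial and stromal cells (4.76 to 8.54). Some genes of the pathway are not reported here.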

Additional observations from a re-analysis of the deposited data

Results flagged for a closer look

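The LPS response differed between the media in 16 of the 28 genes, by the test of the difference itself (log2 LPS change in MOPS less the one in HEPES, edgeR). All 16 were above 0, where 21.9% of all genes tested were called above 0 and 17.6% below. The call of Hsd17b7 held in only 3 of 17 alternatives. Those of Aacs, Mvk, Lss and Msmo1 were lost when certain single LPS libraries were left out. For the entry enzymes the difference was 0.636 in Acss2, 0.382 in Aacs, 1.22 in Acat2, whose counts are uncertain, and 0.285 in Hmgcs1. From mevalonate to squalene it was 0.641 in Mvk, 1.1 in Mvd, 0.564 in Idi1, 0.569 in Sqle and 0.563 in Lss. After lanosterol it was 0.578 in Cyp51, 0.306 in Msmo1, 0.371 in Hsd17b7 and 0.827 in Dhcr7. Among control and transfer genes it was 0.363 in Insig1, 0.509 in Stard4 and 0.514 in Tmem97.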

How the results depend on the processing

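Counted in both directions together, the genes and pathway members called stayed within 1.5 times the reported counts under every alternative run. In 1 direction some did not. With library totals alone, genes that rose with LPS went from 5168 to 2502 in HEPES and from 4945 to 2084 in MOPS, genes that fell from 5982 to 9666 and from 5062 to 9506, members that rose from 3 to 0 and from 7 to 1, and members that fell in MOPS from 12 to 20. With no filter on low counts, members that rose in HEPES went from 3 to 1. Members with a difference in LPS response below 0 went from 0 to 1 without MOPS with LPS replicate 7 or HEPES with LPS replicate 10. With each library left out, genes called ranged from 6445 to 7312 (medium, untreated), 7319 to 7853 (medium, with LPS), 10797 to 11304 (LPS in HEPES), 9551 to 10117 (LPS in MOPS) and 5288 to 5540 (difference in LPS response), and members called from 26 to 27, 23 to 25, 22 to 25, 16 to 19 and 14 to 17. Library totals alone moved the share of called genes that were higher from 50.04% to 62.4% (medium, with LPS), 46.3% to 20.6% (LPS in HEPES), 49.4% to 18.0% (LPS in MOPS) and 55.5% to 66.4% (difference). On that scale the LPS change turned in HEPES to -0.418 (Hmgcs1), -0.560 (Ggps1), -0.528 (Cyp51), -0.441 (Insig1), -0.110 (Srebf2) and -0.556 (Scap), and in MOPS to -0.0607 (Hmgcs1), -0.183 (Idi1), -0.446 (Ggps1), -0.511 (Fdft1), -0.00643 (Insig1) and -0.449 (Scap) while the all-gene median moved by -0.58 and -0.51. No paired analysis was possible because replicate numbers are not shared between groups. Depth limits Fdps most, with 383 counts in all.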

Other observations

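Ch25h encodes the enzyme that makes 25-hydroxycholesterol, an oxysterol that keeps SREBP2 inactive through INSIG. It was at 0.0666 to 0.0815 CPM in MOPS and 0.0737 to 0.28 CPM in HEPES, from 6 and 17 counts in all. With LPS it reached 29.9 to 35.9 CPM in MOPS and 193 to 223 CPM in HEPES, and the 2 media differed with LPS by a log2 change of -2.62 ± 0.06 (adjusted p = 1.18e-21, edgeR).

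Of 13 tested genes on the isoprenoid side branches 3 were higher in MOPS and 2 lower between the untreated media, with a median of -0.04. Over all genes tested 24.3% were higher and 25.4% lower, so the part higher was near that of all genes. The same all-gene shares apply to the lists that follow. The isoprenoid genes called higher were Nus1 (0.42) and Dhdds (0.31), of dolichol synthesis, and Rabggtb (0.41), of Rab prenylation. Of 14 tested genes of cholesterol handling outside synthesis 3 were higher and 5 lower. Stard5, a sterol carrier, was higher in MOPS at 63.0 to 64.5 CPM against 25.2 to 27.7 CPM (log2 change 1.25 ± 0.06, adjusted p = 8.84e-18), opposite to Stard4, while Cyp27a1, the mitochondrial sterol hydroxylase, was lower by 0.52. Of 7 tested electron donors and partners of the sterol enzymes 4 were higher and 3 lower, with Cyb5a, a cytochrome, at 0.78 and Erg28, a scaffold of the late enzymes, at -0.95.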
